A study of Mus musculus with 6 samples.

Results

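The genes that license, fire and carry out DNA replication, with the cyclins and the E2F factor that act at the passage from G1 into S phase, were examined as a set of 47 genes in mouse embryonic stem cells given an shRNA against the nuclear receptor coactivator Ncoa3. The 47 were chosen by name: a probe belonged to the set when its platform gene symbol was one of them, and it was kept when it was detected (detection p under 0.01) on at least 3 of the 6 arrays. All 47 had probes on the array, 88 in all, and 41 had at least 1 kept probe (65 kept probes), out of 11782 measured features, 9569 of them named genes. Of the 41 measured genes, 40 were detected on all 6 arrays, so none passed the filter through one group alone. The exception was Orc2, detected on 5 arrays, 2 of them knockdown and 3 scrambled.

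The study compared 3 samples of E14 cells transfected with an shRNA against Ncoa3, called knockdown here, with 3 samples transfected with an shRNA of scrambled sequence, called scrambled. All were taken at day 4 after transfection, and per the labels the 3 cultures of a group are biological replicates. E14 is a single mouse embryonic stem cell line, and all 6 cultures were grown without feeder cells on gelatin in serum with the cytokine LIF. Both groups had thus been transfected with an shRNA, and no untransfected cells were part of the comparison.

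In G1, the origin recognition complex (the Orc genes) with Cdc6 and Cdt1 loads the ring of Mcm2 to Mcm7 onto origins, which licenses them. At the start of S phase the kinase Cdc7 with Dbf4 and the cyclin-dependent kinases bring Cdc45 and the GINS complex to that ring to form the active helicase, and DNA polymerases alpha, delta and epsilon then copy the strands from nucleotides supplied by ribonucleotide reductase and thymidylate synthase. Many of these genes are transcribed by E2F factors, which Rb1 restrains until cyclin E and D kinases inactivate it. Mouse embryonic stem cells divide rapidly, with a short G1 phase and little restraint by Rb1.

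The arrays of a group were alike. Knockdown arrays had 16262 to 17105 detected probes and scrambled arrays 15720 to 16311, and normalized signals correlated across kept probes at 0.994 to 0.996 within a group and 0.970 to 0.972 between groups. The knockdown itself could not be read: the single probe for Ncoa3 stayed in the background of all 6 arrays, with raw signals of 89.8 ± 1.92 in knockdown and 93.0 ± 6.90 in scrambled samples (SD, n = 3 each). Where the titles and the design name Ncoa3, the protocol text speaks of a plasmid against Esrrb, and Esrrb had a log2 change of -0.62 (SE 0.07, limma adjusted p = 2.55e-04). Cell type markers moved with the groups. The summed normalized signal of 5 embryonic stem cell markers was 21876 to 23554 in knockdown and 31487 to 33146 in scrambled samples, and all 5 were lower in knockdown. The sum of 8 trophectoderm markers was 4553 to 4804 in knockdown and 2254 to 2431 in scrambled samples. Krt18, Krt8 and Tfap2c were detected on all 6 arrays and were higher in knockdown. Cdx2, Krt19 and Gata3 were detected on no scrambled array. They passed the filter only through the knockdown arrays, so their own changes are not given here. The sum of 8 markers includes their signals, so its rise rests in part on them. Eomes was detected on no array at all. The sum of 6 primitive endoderm markers was 511 to 563 in knockdown and 289 to 294 in scrambled samples, with 3 of 4 measured members higher and Gata4 and Sox17 detected on no array. No fibroblast marker of 6 was detected on more than 1 array. In such bulk RNA, fewer cells in S phase and less RNA per cell cannot be told apart, and the part of the marker shifts in the values below was not tested.

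Transcripts of the replication machinery were lower in knockdown cells in most cases and by small amounts. Of the 41 measured genes, 29 (70.7%) were called lower and 0 higher at an adjusted p under 0.05, where 24.3% of all 11782 features were called lower and 22.5% higher. The median log2 change of the 41 was -0.37 (range -0.75 to 0.20), against -0.03 for all features. Taken array by array as the difference from the mean of the scrambled arrays, the median gene stood at -0.40, -0.37 and -0.31 on the knockdown arrays and at -0.03, 0.02 and -0.01 on the scrambled arrays. The 3 knockdown arrays lay below the 3 scrambled arrays for 33 genes, against 31.0% of all features. They lay above them for 1, Mcm7, against 3162 of the 11782 features. A fall of at least 1.5-fold was reached by Cdc45, Pold2, Chaf1b, Gins2, Ccne1, Cdc6 and Rpa2, which is 7 genes, against 6.82% of all features. The remaining called genes fell by less. Scaling each array to the median of all its probes moved the median of all features by a log2 value of 0.12. Then 21 genes (51.2%) were called lower, against 13.5% of all features. The median of the 41 genes was -0.24. Relative to all features it was -0.33 under this scaling, against -0.35 as reported.

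**Figure D1:**
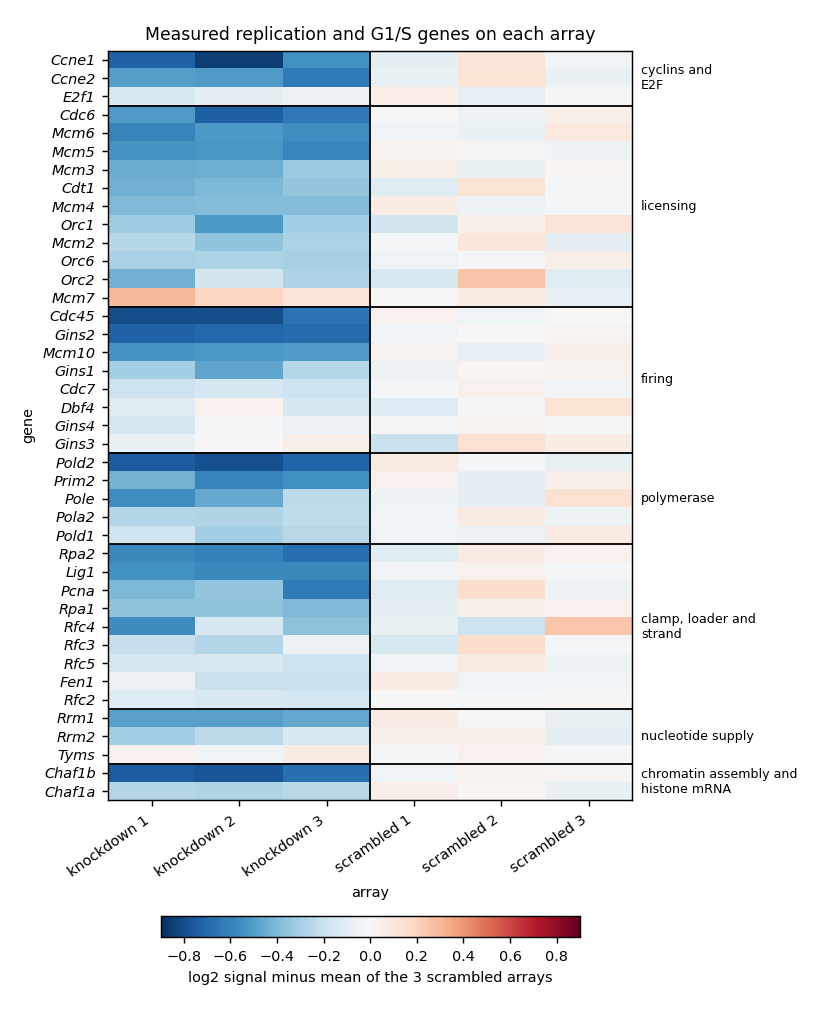
Each row is 1 of the 41 measured genes and each column 1 array, knockdown arrays left of scrambled arrays. Colour gives the log2 normalized signal minus the mean of the 3 scrambled arrays, and rows are grouped by role and sorted by change. The knockdown columns are blue in nearly every row, Mcm7 is the row with warm colours on all 3 knockdown arrays, and E2f1, Dbf4, Gins3, Gins4 and Tyms are close to white.

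Because these genes are classic E2F targets and many of them moved together, their promoters were read from RefSeq (GRCm38.p6), as windows of 300 bases from 250 before to 50 after the start, for the 37 of 47 genes with an entry. A window was searched on both strands, overlaps allowed, for TTTCCCGC, TTTCGCGC, TTTGCCGC and TTTGGCGC, written forms of the E2F element. At least 1 match stood in a window of 13 of 37 genes (35.1%), against 2.60% of all 27025 genes with a window. The general promoter element CCAAT, on either strand, stood in 22 of 37 (59.5%) and in 41.1% of all. Among measured genes, 8 of 11 with an E2F match were called lower (median log2 change -0.40) and 15 of 22 without one (median -0.30), so these letters were present in genes that fell and in genes that did not. The 200 bases before the start are given for 6 genes that show this range, with the matched letters in capitals. Mcm6 (chr1:128359706-128359905, minus strand), Mcm5 (chr8:75109309-75109508, plus strand) and Cdc6 (chr11:98907951-98908150, plus strand) held matches and fell. Gins3 (chr8:95633359-95633558, plus strand) and Mcm7 (chr5:138171884-138172083, minus strand) held matches and were not called, and the window of Mcm7 shown is the one with most matches. Cdc45 (chr16:18811973-18812172, minus strand) held none and had the most negative log2 change of the 41.
Mcm6: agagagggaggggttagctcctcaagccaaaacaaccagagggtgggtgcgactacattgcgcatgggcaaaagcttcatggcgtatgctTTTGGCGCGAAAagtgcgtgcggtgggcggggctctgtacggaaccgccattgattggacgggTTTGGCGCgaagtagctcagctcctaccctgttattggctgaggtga
Mcm5: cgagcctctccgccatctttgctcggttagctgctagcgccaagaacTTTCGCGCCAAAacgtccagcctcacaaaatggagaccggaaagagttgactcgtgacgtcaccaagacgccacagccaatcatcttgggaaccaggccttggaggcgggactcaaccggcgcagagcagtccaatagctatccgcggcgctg
Cdc6: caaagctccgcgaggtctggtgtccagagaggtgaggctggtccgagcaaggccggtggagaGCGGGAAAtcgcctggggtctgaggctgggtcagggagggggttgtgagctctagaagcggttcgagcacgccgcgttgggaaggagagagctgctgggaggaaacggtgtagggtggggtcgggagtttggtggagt
Gins3: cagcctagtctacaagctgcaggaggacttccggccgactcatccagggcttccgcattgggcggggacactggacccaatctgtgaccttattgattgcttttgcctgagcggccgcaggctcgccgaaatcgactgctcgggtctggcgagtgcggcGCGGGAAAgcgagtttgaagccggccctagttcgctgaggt
Mcm7: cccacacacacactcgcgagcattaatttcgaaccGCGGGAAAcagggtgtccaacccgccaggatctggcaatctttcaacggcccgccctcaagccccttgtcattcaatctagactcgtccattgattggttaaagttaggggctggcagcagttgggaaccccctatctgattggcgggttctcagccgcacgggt
Cdc45: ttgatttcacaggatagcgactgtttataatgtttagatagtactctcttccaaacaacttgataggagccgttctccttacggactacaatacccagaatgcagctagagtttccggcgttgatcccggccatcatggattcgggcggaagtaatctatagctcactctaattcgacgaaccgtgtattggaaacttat
In Mcm6 and Mcm5 a pair of matches on opposite strands overlaps to form one run of 12 capitals, and Mcm6 has a further match nearer the start. These are matches of letters only.

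The cyclins that drive entry into S phase fell. Ccne1, a cyclin E that activates Cdk2, had log2 signals of 7.995, 7.88 and 8.18 in knockdown and 8.63, 8.84 and 8.70 in scrambled samples. The groups did not overlap, and the log2 change was -0.71 (SE 0.09, adjusted p = 7.84e-04), a 1.63-fold fall. Its paralog Ccne2 had log2 signals of 6.55, 6.54 and 6.41 in knockdown and 6.98, 7.17 and 6.99 in scrambled samples, a log2 change of -0.55 (SE 0.08, adjusted p = 0.00101). The Ccne2 probe was dim, with raw signals of 163 ± 11.2 in knockdown and 194 ± 5.67 in scrambled samples (SD, n = 3 each). Over the 16 other settings its change ran from -0.58 to -0.28. E2f1, the activating E2F of the set, had log2 signals of 9.99, 10.05 and 10.09 in knockdown and 10.19, 10.06 and 10.15 in scrambled samples. Its groups overlapped and it was not called (log2 change -0.09, adjusted p = 0.296). The S phase cyclin Ccna2 was detected on no array (raw signal 96.9 ± 3.83 in knockdown and 100 ± 5.50 in scrambled samples; SD, n = 3 each).

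Licensing genes fell in 9 of 11 measured cases, where 24.3% of all features were called lower, with a median log2 change of -0.39. The group splits into the factors that bind origins and load the ring, and the ring itself. Cdc6, the loading ATPase, had log2 signals of 8.47, 8.24 and 8.33 in knockdown and 8.98, 8.92 and 9.03 in scrambled samples, and its log2 change was -0.63 (SE 0.08, adjusted p = 4.50e-04). Cdt1, which brings the ring to origins, changed by -0.40 (adjusted p = 0.00373). Of the origin recognition complex, Orc1 changed by -0.38 (adjusted p = 0.0141) and Orc6 by -0.29 (adjusted p = 0.00442). Orc2 had a change of -0.29 but a wider spread, with an adjusted p of 0.0915. Orc1 was not called after all-probe median scaling (log2 change -0.21, adjusted p = 0.111). The Orc1 probe was dim, with raw signals of 167 ± 0.60 in knockdown and 185 ± 9.53 in scrambled samples (SD, n = 3 each). Over the 16 other settings its change ran from -0.46 to -0.17. Geminin (Gmnn), the inhibitor of Cdt1, was detected on no array.

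Of the 6 ring subunits, 5 fell, beside 24.3% of all features called lower. Mcm6 had log2 signals of 11.13, 11.21 and 11.17 in knockdown and 11.70, 11.67 and 11.82 in scrambled samples, a log2 change of -0.56 (SE 0.06, adjusted p = 3.75e-04). Mcm5 was as tight, at 12.82, 12.82 and 12.75 in knockdown and 13.38, 13.36 and 13.30 in scrambled samples, a log2 change of -0.55 (SE 0.06, adjusted p = 2.51e-04). On the raw scale, before normalization, Mcm5 read 7087, 7919 and 6944 in knockdown and 10340, 10286 and 10202 in scrambled samples, so the fall can be seen in the scanner values. Mcm3 had log2 signals of 9.64, 9.65 and 9.75 in knockdown and 10.14, 10.02 and 10.11 in scrambled samples. Its log2 change was -0.41 (adjusted p = 0.00179), beside changes of -0.39 for Mcm4 (adjusted p = 0.00136) and -0.30 for Mcm2 (adjusted p = 0.0108).

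Mcm7 was the exception among the ring subunits, and its per-array values are given because of that, chosen after they were seen. Its brighter probe had log2 signals of 10.07, 9.97 and 9.90 in knockdown and 9.78, 9.85 and 9.71 in scrambled samples. All 3 knockdown arrays were higher, but the log2 change of 0.20 (SE 0.07) had an adjusted p of 0.0535 and was not called. Its other kept probe went the opposite way, at 9.04, 9.09 and 9.17 in knockdown and 9.26, 9.26 and 9.37 in scrambled samples, a log2 change of -0.20 with an adjusted p of 0.0493 when every kept probe was tested. The brighter probe was called higher under 6 of the 16 other settings, among them the authors' normalized values (log2 change 0.29, adjusted p = 8.73e-04). The array therefore gave no single direction for Mcm7.

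The firing step, where the loaded ring becomes an active helicase, held both the most negative log2 change of the set and several genes near 0. Of its 8 genes, 5 fell, beside 24.3% of all features called lower, and the median log2 change was -0.26. Cdc45, the helicase cofactor, had log2 signals of 9.28, 9.27 and 9.41 in knockdown and 10.11, 10.03 and 10.08 in scrambled samples, and the log2 change of -0.75 (SE 0.06, adjusted p = 9.18e-05) corresponds to a 1.69-fold fall. Its raw signals were 680, 780 and 750 in knockdown and 1121, 1053 and 1112 in scrambled samples. Mcm10, a replication initiation factor, had log2 signals of 11.14, 11.16 and 11.17 in knockdown and 11.71, 11.60 and 11.72 in scrambled samples, a change of -0.52 (SE 0.06, adjusted p = 4.01e-04). All 3 kept probes of Mcm10 were negative.

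The 4 subunits of GINS, which occur once each in the complex, did not show one value. Gins2 had log2 signals of 9.44, 9.46 and 9.48 in knockdown and 10.14, 10.17 and 10.19 in scrambled samples, a narrow spread, with a log2 change of -0.71 (SE 0.05, adjusted p = 5.73e-05). Its 3 kept probes gave -0.71, -0.79 and -0.83. Gins1 had log2 signals of 9.66, 9.49 and 9.71 in knockdown and 9.91, 9.98 and 10.00 in scrambled samples, a change of -0.34 (adjusted p = 0.00720). Gins3 had a log2 change of 0.00 (adjusted p = 0.998) and Gins4 of -0.07 (adjusted p = 0.397), and their groups overlapped. The difference between subunits was not tested. The kinase Cdc7 changed by -0.18 (adjusted p = 0.0327), and its partner Dbf4 was not called (-0.08, adjusted p = 0.484). Cdc7 lost its call without any one of the 6 arrays (log2 change -0.19 to -0.16), with the replicate block (-0.18), with no filter (-0.18), with cyclic loess (-0.13), with the authors' values (-0.08) and after all-probe median scaling (-0.06).

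**Figure D2:**
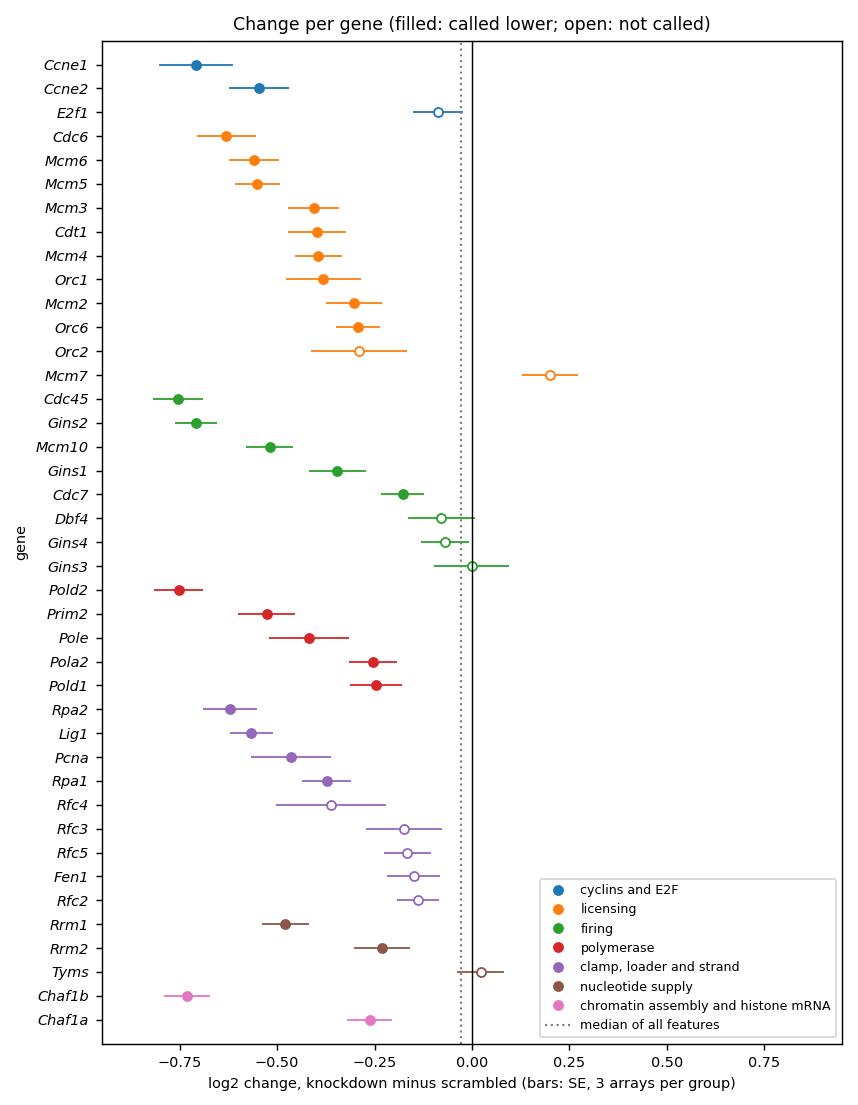
Each point is the log2 change (knockdown minus scrambled, horizontal axis) of 1 measured gene, with its standard error over 3 arrays per group; colours give the role, filled points were called lower and open points were not called. The dotted line is the median of all features at -0.03. Cdc45, Pold2, Chaf1b, Gins2 and Ccne1 lie farthest left, and the 4 Rfc genes are all open.

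Every measured polymerase gene fell, 5 of 5, where 24.3% of all features were called lower, with a median log2 change of -0.42. Pold2, the accessory subunit of polymerase delta, had log2 signals of 9.89, 9.84 and 9.92 in knockdown and 10.72, 10.62 and 10.57 in scrambled samples, a log2 change of -0.75 (SE 0.06, adjusted p = 8.67e-05). Prim2, the large primase subunit, had log2 signals of 8.89, 8.71 and 8.76 in knockdown and 9.36, 9.23 and 9.36 in scrambled samples, a change of -0.53 (SE 0.07, adjusted p = 9.02e-04). Pole, the catalytic subunit of the leading-strand polymerase, varied more between arrays.

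Pole had log2 signals of 7.65, 7.75 and 7.97 in knockdown and 8.16, 8.12 and 8.35 in scrambled samples (change -0.42, SE 0.10, adjusted p = 0.0123). Pola2, a subunit of polymerase alpha, had log2 signals of 9.03, 9.02 and 9.06 in knockdown and 9.26, 9.36 and 9.24 in scrambled samples, a change of -0.25 (adjusted p = 0.0115). Pold1, the catalytic subunit of polymerase delta, also changed by -0.25 (adjusted p = 0.0192). Of the 3 genes not above background, Pola1, Prim1 and Pole2, the first is the catalytic subunit of polymerase alpha and the other two belong to primase and to polymerase epsilon, so 5 of 8 polymerase genes could be read. After all-probe median scaling Pole (-0.27, adjusted p = 0.0874), Pola2 (-0.12, adjusted p = 0.254) and Pold1 (-0.12, adjusted p = 0.255) were not called, and Pold1 also lost its call without knockdown replicate 2 (-0.22) or 3 (-0.24) or scrambled replicate 3 (-0.20), with cyclic loess (-0.19) and with the authors' values (-0.13). Pola2 was not called with the authors' values either (-0.13).

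Of the 9 genes for the clamp, its loader and the handling of single strands, 4 fell (Rpa1, Rpa2, Lig1 and Pcna). Among all features 24.3% were called lower. All 9 changes were negative and the median log2 change was -0.36. Rpa2 had log2 signals of 9.30, 9.27 and 9.20 in knockdown and 9.77, 9.95 and 9.91 in scrambled samples, a log2 change of -0.62 (SE 0.07, adjusted p = 3.47e-04), and Rpa1, the large subunit of the same complex, had 12.64, 12.64 and 12.60 in knockdown and 12.91, 13.05 and 13.03 in scrambled samples, a change of -0.37 (adjusted p = 0.00227). Lig1, which seals the fragments of the lagging strand, had log2 signals of 10.34, 10.30 and 10.30 in knockdown and 10.85, 10.92 and 10.87 in scrambled samples, a change of -0.57 (SE 0.06, adjusted p = 1.77e-04). Its 4 kept probes were all negative, from -0.64 to -0.26. The 3 kept Rpa2 probes gave -0.62, -0.61 and 0.07.

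Pcna, the sliding clamp, had log2 signals of 6.90, 6.94 and 6.67 in knockdown and 7.19, 7.46 and 7.26 in scrambled samples, a log2 change of -0.46 (SE 0.10, adjusted p = 0.00771). After all-probe median scaling it was not called (-0.30, adjusted p = 0.0605). The Pcna probe was dim, with raw signals of 189 ± 19.8 in knockdown and 218 ± 9.77 in scrambled samples (SD, n = 3 each). Over the 16 other settings its change ran from -0.52 to -0.24. None of the 4 measured subunits of the clamp loader was called, although all 4 changes were negative: -0.14 for Rfc2 (adjusted p = 0.0713), -0.17 for Rfc3 (adjusted p = 0.182), -0.36 for Rfc4 (adjusted p = 0.0717) and -0.17 for Rfc5 (adjusted p = 0.0599). For Rfc2 and Rfc5 the 3 knockdown arrays lay below the 3 scrambled arrays, as they did for 31.0% of all features. Rfc4 was called without knockdown replicate 2 (-0.47, adjusted p = 0.0441) or scrambled replicate 2 (-0.46, adjusted p = 0.0473), and Rfc2, Rfc4 and Rfc5 were each called with no background correction. Fen1, the flap endonuclease, was not called (-0.15, adjusted p = 0.112).

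Of the nucleotide supply genes 2 of 3 fell, beside 24.3% of all features called lower. Their median log2 change was -0.23, which is the value of Rrm2. The medians were -0.39 for licensing and -0.42 for polymerases. Rrm1, the large subunit of ribonucleotide reductase, had log2 signals of 9.79, 9.79 and 9.82 in knockdown and 10.35, 10.27 and 10.21 in scrambled samples, a log2 change of -0.48 (SE 0.06, adjusted p = 6.13e-04). Rrm2, the S phase small subunit of that enzyme, had 9.17, 9.25 and 9.33 in knockdown and 9.52, 9.52 and 9.39 in scrambled samples. The groups did not overlap, and the change was -0.23 (SE 0.07, adjusted p = 0.0337).

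The Rrm2 call was lost without knockdown replicate 1 (-0.19) or 2 (-0.23) or scrambled replicate 1 (-0.21) or 2 (-0.21), with the replicate block (-0.23), with no filter (-0.23), with cyclic loess (-0.19), with the authors' values (-0.12) and after all-probe median scaling (-0.10), and its 3 kept probes gave -0.23, -0.28 and 0.07. Tyms, thymidylate synthase, had log2 signals of 11.07, 10.995 and 11.11 in knockdown and 11.02, 11.07 and 11.02 in scrambled samples, and was not called (log2 change 0.02, SE 0.06, adjusted p = 0.782). The 3 dimmer Tyms probes gave -0.12, -0.25 and -0.16, none of them called. By group, the median gene on knockdown arrays 1 to 3, relative to the scrambled mean, stood at -0.43, -0.40 and -0.34 for licensing, at -0.43, -0.46 and -0.25 for polymerases and at -0.31, -0.23 and -0.15 for nucleotide supply. On each knockdown array the nucleotide supply median was the value of Rrm2, so it follows 1 gene, whose call was not stable. The log2 change was -0.48 for Rrm1 and 0.02 for Tyms. The nucleotide supply medians overlapped those of the polymerases and not those of licensing. With 3 genes in the smallest group and genes that are not replicates of a condition, the difference between groups was not tested.

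Both measured genes of chromatin assembly behind the fork fell, where 24.3% of all features were called lower. Chaf1b, a subunit of the histone chaperone CAF-1, had log2 signals of 9.28, 9.26 and 9.35 in knockdown and 9.99, 10.05 and 10.03 in scrambled samples, a log2 change of -0.73 (SE 0.06, adjusted p = 6.76e-05). Its partner Chaf1a had 10.26, 10.26 and 10.27 in knockdown and 10.57, 10.54 and 10.47 in scrambled samples, a smaller change of -0.26 (adjusted p = 0.00825) that was not called after all-probe median scaling (-0.15, adjusted p = 0.132). Slbp, which binds histone mRNA, was detected on no array.

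Probes of one gene were mostly of one sign. Of 14 genes with several kept probes, all kept probes agreed in sign for 10 and differed for 4, Mcm7, Rpa2, Rrm2 and Tyms. When every kept probe was tested on its own, 44 of the 65 probes were called lower and 0 higher. Of all 16674 kept probes, 22.7% were called lower and 3480 were called higher. Among probes of one sign, the 4 of Lig1 ran from -0.64 to -0.26, and the bright and dim probes of Mcm4 gave -0.39 and -0.74.

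**Figure D3:**
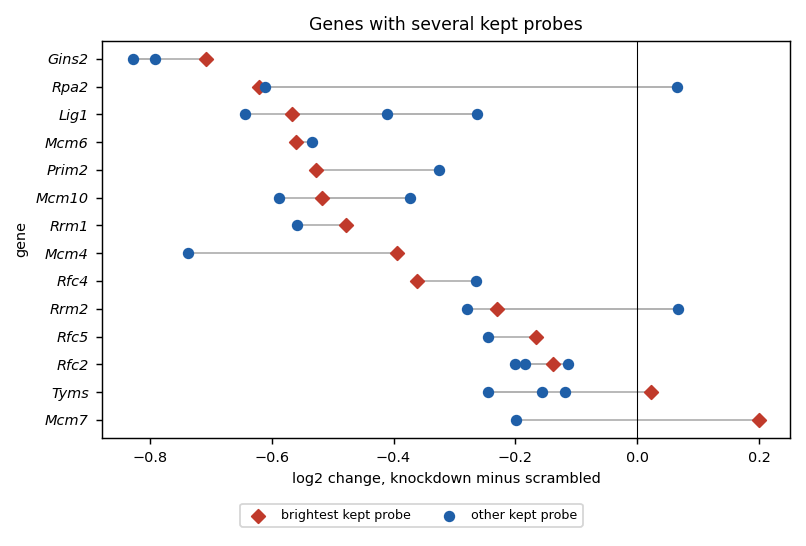
Each row is 1 of the 14 genes with several kept probes, and each point the log2 change (knockdown minus scrambled) of 1 probe; diamonds mark the brightest kept probe, which stands for the gene, and circles the others. Mcm7, Rpa2, Rrm2 and Tyms have probes on both sides of 0, and the 3 Gins2 probes lie between -0.83 and -0.71.

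Replication genes outside the 47 showed falls as well. Of 22 measured further replication genes, 12 fell (54.5%) and 1 rose, where 24.3% of all features were called lower and 22.5% higher. The median log2 change was -0.23. Rnaseh2a, a subunit of the RNase H enzyme that removes RNA from DNA, changed by -0.67 (adjusted p = 2.32e-04), Pold3, another polymerase delta subunit, by -0.61 (adjusted p = 7.73e-04) and the fork protection factor Tipin by -0.55 (adjusted p = 2.04e-04). The topoisomerase Top1 was the one that rose, by 0.29 (adjusted p = 0.0364), while its other kept probe gave 0.00. It lost its call without knockdown replicate 1 (0.30) or 2 (0.21) or scrambled replicate 1 (0.29) or 2 (0.25). After all-probe median scaling the count of falls was 5, with 3 rising. Under that scaling 13.5% of all features were called lower, and 3552 of 11782 higher.

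Of 21 measured genes of nucleotide synthesis, 12 fell (57.1%) and 1 rose (median log2 change -0.25). Among all features 24.3% were called lower and 22.5% higher. Shmt1, a folate cycle enzyme that feeds thymidylate synthesis, changed by -0.97 (adjusted p = 3.29e-05), the thymidine salvage kinase Tk1 by -0.74 (adjusted p = 1.09e-04) and Dhodh, of pyrimidine synthesis, by -0.71 (adjusted p = 9.70e-05). Rrm2b, the p53-inducible small subunit of ribonucleotide reductase, rose where Rrm1 and Rrm2 fell. It had log2 signals of 6.54, 6.77 and 6.34 in knockdown and 5.93, 6.31 and 5.95 in scrambled samples, a change of 0.48 (SE 0.14, adjusted p = 0.0257). The call was lost without knockdown replicate 1 (0.49) or 2 (0.37) or scrambled replicate 1 (0.42) or 3 (0.43).

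Of 8 measured further chromatin replication genes, 4 fell and 1 rose (median -0.26), beside 24.3% of all features lower and 22.5% higher. The histone chaperone subunit Supt16 changed by -0.43 (adjusted p = 9.48e-04), Uhrf1, which keeps DNA methylation through replication, by -0.42 (adjusted p = 0.00134) and Rbbp4, a subunit shared by CAF-1 and other complexes, by -0.41 (adjusted p = 0.00225). Its paralog Rbbp7 rose by 0.23 (adjusted p = 0.0198), with 1 of its 4 kept probes at -0.12, and lost its call without knockdown replicate 2 (0.19) or scrambled replicate 1 (0.21).

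Of 16 measured regulators of the G1/S passage outside the 47, 5 fell and 2 rose, with a median log2 change of -0.06. Beside the 24.3% lower and 22.5% higher among all features, these counts are not a result about the list, and single genes are given for their own values. Rb1, the retinoblastoma protein that holds E2F in check, had log2 signals of 9.16, 9.18 and 9.27 in knockdown and 8.25, 8.08 and 8.25 in scrambled samples, a change of 1.01 (SE 0.07, adjusted p = 3.86e-05), or 2.01-fold, and its other kept probe gave 1.16. E2f6, a repressing E2F, rose by 0.30 (adjusted p = 0.00828), and its 4 kept probes were all positive. E2f4, a repressing E2F as well, fell by 0.44 (adjusted p = 6.32e-04), and the activating E2f3 was not called (log2 change 0.17, adjusted p = 0.137); both are named after their values were seen. The activating factor E2f2 fell, with log2 signals of 7.40, 7.29 and 7.35 in knockdown and 8.13, 8.19 and 8.07 in scrambled samples (change -0.78, SE 0.06, adjusted p = 7.23e-05). Mybl2, a factor that works with E2F on cell cycle genes, changed by -0.98 (SE 0.07, adjusted p = 3.22e-05), and its 3 kept probes gave -0.98, -1.10 and -0.37.

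Among 9 measured CDK inhibitors and D-type cyclins, 4 rose and 2 fell (median log2 change 0.37). Of all features, 22.5% were called higher and 24.3% lower. The share that fell, 22.2%, is near that of all features and is not a result about the list. Ccnd2 had log2 signals of 10.07, 10.27 and 10.00 in knockdown and 8.62, 8.55 and 8.10 in scrambled samples, a change of 1.69 (SE 0.14, adjusted p = 9.32e-05). The inhibitors Cdkn1a and Cdkn1c rose by 0.78 and 0.77 (adjusted p = 8.19e-05 and 2.25e-04). Ccnd3 fell by 0.42 (adjusted p = 0.00168) and Ccnd1 by 0.17 (adjusted p = 0.0377). Of the 3 kept Ccnd1 probes 1 gave 0.03, and its call was lost without any single array other than scrambled replicate 1 (-0.17 to -0.16).

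Mitosis genes were the nearest comparison list. Of 23 measured, 8 fell (34.8%) and 0 rose, where 24.3% of all features were called lower and 22.5% higher. The median log2 change was -0.16, against 29 of 41 lower and -0.37 for the replication and G1/S genes. Ttk, not called, was detected on 3 knockdown arrays and 0 scrambled arrays. It passed the filter only through the knockdown arrays and is counted in the 23 and in the median. The difference between the lists was not tested. Ccnf, Aurka and Cdc25b changed by -0.43 (adjusted p = 0.00161), -0.39 (adjusted p = 0.00175) and -0.38 (adjusted p = 0.00572). The count was 5 without knockdown replicate 2 or scrambled replicate 3, where 20% and 21% of all features were called lower. It was 4 after all-probe median scaling, where 13.5% of all features were lower. Counts of 5 and 4 of 23 are near those shares and are not a result about the list. With median scaling over kept probes only the count was 12, where 27.8% of all features were lower.

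**Figure D4:**
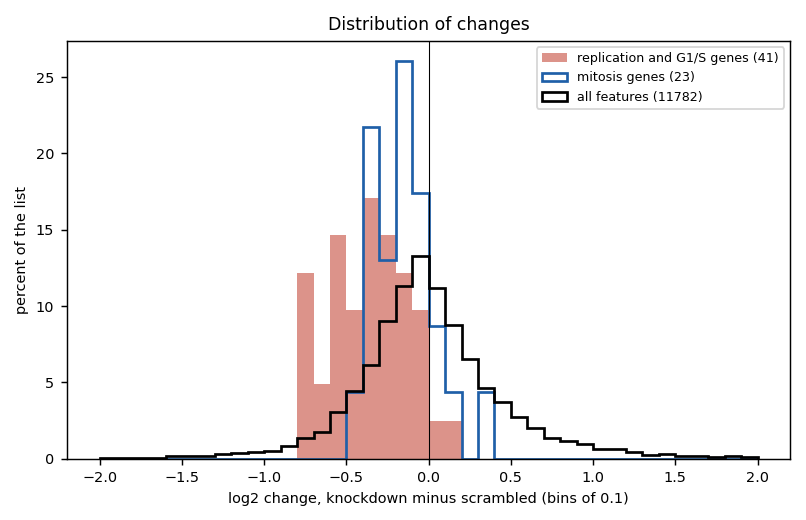
The share of each list (vertical axis, percent) is drawn in bins of 0.1 of the log2 change (knockdown minus scrambled, horizontal axis, shown from -2 to 2) for the 41 measured replication and G1/S genes (filled), the 23 mitosis genes (blue line) and all 11782 features (black line). The filled bars sit left of 0 except for Mcm7 and Tyms, between -0.75 and 0.20, and do not reach the far left tail of all features.

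Leaving out each array in turn gave 27 or 28 genes called lower, where 20% to 22.1% of all features were. The median log2 change was then -0.38 to -0.34. Of the 29 genes called lower, 21 were called in the same direction under all 16 other settings, and the remaining 8 are those whose lost calls are given above.

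**Figure D5:**
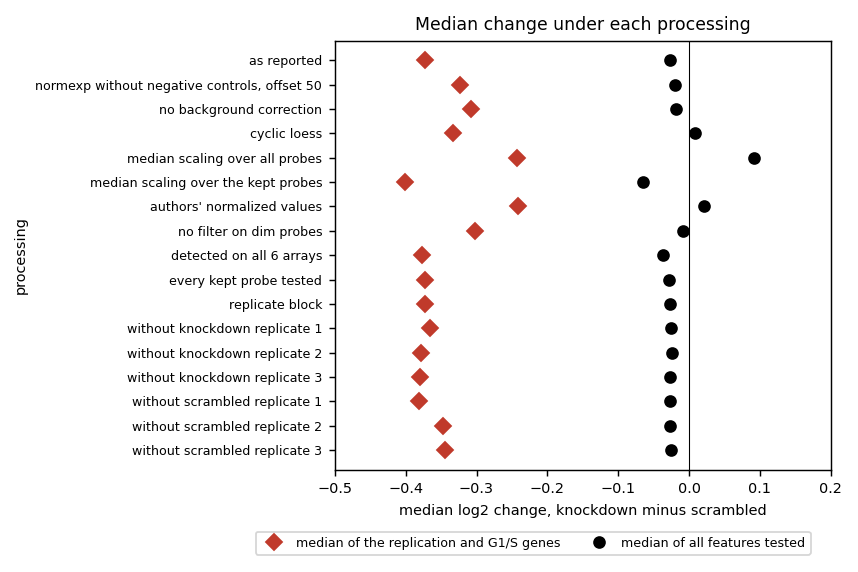
Each row is 1 way of processing the 6 arrays, with the reported one on top; diamonds give the median log2 change of the measured replication and G1/S genes and circles that of all features tested. Under the listed settings the diamonds lie between -0.40 and -0.24 and the circles between -0.07 and 0.09.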

How the data were processed

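Total RNA of 6 samples was measured on Illumina bead arrays with 45281 probes. The authors' deposited signal table holds linear probe intensity, non-normalized per the file headers, and beside it a deposited detection p-value per probe and array. The authors' normalized intensity table, deposited as well and used as an alternative, keeps the probe order of the raw signal on each array (rank correlation 1), with column medians of 89.4, 88.4 and 87.6 for knockdown and 92.7, 93.5 and 92.4 for scrambled replicates 1 to 3. The method behind it is not given in the sources used here.

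From the raw table, limma 3.58.1 in R 4.3.3 gave log2 signals through neqc, that is, background correction with the background inferred from detection p-values, an offset of 16 and quantile normalization. The filter asked for a detection p under 0.01 on 3 or more arrays, which left 16674 probes and removed 28607. Probes were named from GEO's platform annotation (34885 with 1 gene, 18 with several, 10378 with none), and the brightest kept probe stood for a gene. Levels of different genes are those of different probes and are not compared.

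Groups and replicate numbers came from the sample titles. Knockdown was compared with scrambled samples by limma (lmFit, eBayes; 2-sided), and every adjusted p is limma's Benjamini-Hochberg value over 11782 features, a call being under 0.05. Log2 changes are knockdown minus scrambled. The number of arrays, 3 per group, limits the precision. The fit was tested on simulated data with independent noise and far fewer changed features than were called here. That test does not bear on the share of features called. Deviations of same-numbered samples correlated at -0.004, -0.006 and 0.015, against -0.045 to 0.047 for different numbers. With 3 arrays per group these values do not settle whether equal numbers pair the samples. The titles do not tie equal numbers together, so the replicate number was used only as an alternative block. Alternatives covered background, scaling, filter, probe choice, replicate block and leaving out each array.

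The 47 genes and the further lists were chosen with earlier results of these data known. Values on each array are given for up to 4 called genes per role with the largest change, for every cyclin, E2F and nucleotide supply gene, and of each further list up to 3 called genes with the largest change are named, plus those called against its majority.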

Additional observations from a re-analysis of the deposited data

How the results depend on the processing

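Under 16 other settings no called gene of the 41 changed direction, and 21 of the 29 kept their call in all 16. The uncalled E2f1, Dbf4, Gins3 and Tyms changed sign in some. The replicate block gave 28 genes lower and 0 higher, and 2622 features lower and 2511 higher, with 0 further replication genes and 2 nucleotide synthesis genes higher and 1 D-type cyclin lower. Genes called lower numbered 26 with cyclic loess, 21 with all-probe median scaling and 33 with kept-probe median scaling (added after seeing the data). The shares of all features called lower were 20.9%, 13.5% and 27.8%. Genes called lower numbered 25 with the authors' values, 27 with no filter, and 32 with normexp or no background correction. The shares of all features were there 20.3%, 8.27%, 26.7% and 27%. Mcm7 was the 1 gene called higher under normexp, no background correction, cyclic loess, all-probe median scaling, the authors' values and detection on all 6 arrays. Of features called, 48.1% were higher as reported, 69.1% with all-probe median scaling and 59.8% with the authors' values.

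Median log2 changes moved by more than their replicate spread as follows, in the order all 41 genes, licensing, firing, polymerase, clamp and strand, nucleotide supply, chromatin assembly, cyclins and E2F. Median scaling over all probes gave -0.24, -0.28, -0.14, -0.27, -0.21, -0.10, -0.38 and -0.38, and the authors' values -0.24, -0.28, -0.15, -0.24, -0.20, -0.12, -0.37 and -0.28. Normexp gave -0.32 for all genes, -0.34 for polymerases, -0.31 for clamp and strand, -0.47 for chromatin assembly and -0.36 for cyclins and E2F. No background correction gave -0.31, -0.33, -0.30, -0.46 and -0.34 for these and -0.38 for licensing. Cyclic loess gave -0.33 for all genes, -0.35 for licensing, -0.21 for firing and -0.45 for chromatin assembly, and kept-probe median scaling -0.40, -0.44, -0.29 and -0.54. No filter gave -0.30 for all genes, -0.25 for polymerases, -0.26 for chromatin assembly and -0.32 for cyclins and E2F, with the undetected genes included. Relative to all features the median of the set was -0.30 with normexp, -0.29 without background correction, -0.26 with the authors' values and -0.29 without a filter. Leaving out 1 array gave -0.38 to -0.34 for all genes, -0.35 to -0.32 relative to all features, -0.42 to -0.36 for licensing, -0.28 to -0.23 for firing, -0.51 to -0.35 for polymerases and -0.39 to -0.24 for clamp and strand.

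In the further lists, replication genes called higher numbered 2 with cyclic loess, 3 with all-probe median scaling or the authors' values and 0 with no filter, and 5 were lower with all-probe median scaling. Nucleotide synthesis genes called higher numbered 2 with normexp, no background correction, cyclic loess or detection on all 6 arrays, 3 with all-probe median scaling or the authors' values and 0 with no filter. Mitosis genes called lower numbered 4 with all-probe median scaling, and 1 was higher there and with the authors' values. Among D-type cyclins and inhibitors 1 was lower with cyclic loess, all-probe median scaling, the authors' values or no filter. Rbbp7 was not called with kept-probe median scaling, which left 0 chromatin genes higher. Leaving out 1 array gave 5 to 8 mitosis genes lower, 0 to 1 replication, nucleotide and chromatin genes higher, and 1 to 2 D-type cyclins lower. The cause of these shifts was not tested. The slide as a block was not run, since no slide is given in the sources used here. Genes under background, among them Ccna2, Gmnn and Slbp, could not be read.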
